A study of Mus musculus with 30 samples.

Results

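Axons in the growing brain are steered by a small number of families of secreted or membrane-bound cues and by the receptors that read them. The genes described here are the 69 protein-coding mouse genes whose symbols belong to the netrins, DCC and UNC5 receptors, slits, ROBO receptors, semaphorins of classes 3 to 7, neuropilins, plexins, ephrins and Eph receptors, out of 19737 genes in the deposited table. They were picked by symbol, by a rule that was chosen with earlier results of these data known. They fell into 15 families, with 35 ligands and 34 receptors, and lay on 19 chromosomes. All 69 had a mean of at least 10 normalised read counts over the 30 libraries and entered at least 1 comparison.

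The study asked how loss of 1 copy of Arid1b, which encodes a DNA-binding subunit of the BAF chromatin remodelling complex, alters the mouse brain transcriptome, and whether early fluoxetine changes this. Whole brains of male C57BL/6N mice were sequenced, with 1 library per mouse and 5 libraries in each of 6 groups. Pups at postnatal day 10 (P10) were wild type (WT-P10) or carried a heterozygous frameshift in exon 5 of Arid1b in every cell (HT-P10), and neither had been given fluoxetine or saccharin. The 4 groups at P120 were WT or HT mice whose dams drank 0.2% saccharin water without fluoxetine (WT-Veh and HT-Veh), or the same water with 0.1 mg/ml fluoxetine, a selective serotonin reuptake inhibitor (WT-Flx and HT-Flx). Dams drank it from P3 to P21, so the drug reached pups through milk, and the mice drank plain water from weaning to P120. Age therefore came with saccharin exposure, and with any difference in extraction or sequencing between the ages, in both age comparisons. These effects cannot be told apart.

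Netrin-1 attracts axons that carry DCC and repels those that also carry an UNC5 receptor. Slits bind ROBO receptors and keep axons from crossing or recrossing the midline. Class 3 semaphorins are secreted and act through a neuropilin paired with an A-type plexin, whereas classes 4 to 7 are held at the membrane and bind plexins directly. Ephrins are anchored to the membrane (ephrin-As by a lipid, ephrin-Bs by a transmembrane segment) and bind Eph receptor tyrosine kinases on a neighbouring cell, with signals in both directions. Many of these molecules stay in the adult brain, where they are known for roles at synapses, in myelinating cells and in blood vessels.

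Arid1b was lower in HT-P10 (2162 to 2334 normalised read counts) than in WT-P10 (3164 to 3309, log2 fold change −0.55 ± 0.04 (SE), n = 5 and 5, limma adjusted p = 1.5e-05), and lower in HT-Flx than in WT-Flx (−0.41 ± 0.08, adjusted p = 0.0008). Among vehicle mice, the library labelled HT-Veh replicate 2 held 3361 and the library labelled WT-Veh replicate 2 held 2320.4 Arid1b counts, each at the level of the other genotype. Both were left out of the comparison of HT-Veh with WT-Veh, as in the study, and counts without them are given beside the other comparisons that hold vehicle mice. The normalised counts summed to 31578614 to 41801037 per library.

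Adult libraries differed in how strongly GC-rich transcripts were represented, and the guidance genes span that range. Their transcripts had a median GC content of 56.3%, from 40.3% for Sema3d to 63.5% for Sema6c, against 50.6% over 17956 genes with a mean of at least 10. The 4 stretches of coding sequence below show the contrast for a secreted against a membrane-bound semaphorin and for 2 receptors of the UNC5 family. Each is the central 120 bases of the longest coding exon part, 5′ to 3′ on the transcript, with every G and C in capitals (GENCODE M21, GRCm38). The Sema3d stretch lies at chr5:12585028-12585147 (plus strand, exon 18 of 18) and holds 60 G or C, and the Sema6c stretch at chr3:95172710-95172829 (plus strand, exon 18 of 18) holds 91. The Unc5d stretch at chr8:28719745-28719864 (minus strand, exon 11 of 18) holds 60 and the Unc5a stretch at chr13:54999713-54999832 (plus strand, exon 9 of 16) 77.
Sema3d: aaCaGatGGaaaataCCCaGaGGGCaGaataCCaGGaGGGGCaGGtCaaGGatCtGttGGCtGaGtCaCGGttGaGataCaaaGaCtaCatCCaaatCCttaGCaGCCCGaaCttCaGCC
Sema6c: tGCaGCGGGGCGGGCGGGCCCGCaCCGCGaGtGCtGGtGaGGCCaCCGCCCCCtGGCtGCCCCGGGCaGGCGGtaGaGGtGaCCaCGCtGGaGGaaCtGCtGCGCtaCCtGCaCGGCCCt
Unc5d: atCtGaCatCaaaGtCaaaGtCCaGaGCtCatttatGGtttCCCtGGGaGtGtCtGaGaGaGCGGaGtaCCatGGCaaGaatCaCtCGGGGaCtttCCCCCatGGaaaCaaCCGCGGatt
Unc5a: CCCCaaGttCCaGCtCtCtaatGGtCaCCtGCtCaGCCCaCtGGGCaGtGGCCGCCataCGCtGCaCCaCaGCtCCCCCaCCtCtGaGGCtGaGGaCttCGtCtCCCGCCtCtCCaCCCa

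Over the 35 members with a GC content of at least 56.3% and the other 34, the difference in mean log2 level (GC-rich minus GC-poor) was −0.51 to −0.43 in the WT-P10 libraries and −0.74 to −0.47 in the HT-P10 libraries. Adult libraries spread more widely, within and between groups, from −0.01 to 0.57 in WT-Veh, from −0.36 to 0.91 in HT-Veh and from −0.30 to −0.04 in WT-Flx. All 5 HT-Flx libraries lay at 0.67 to 1.48, above every WT-Flx library. Values after a correction that centres genes of like GC content and transcript length within each library are therefore given beside the main values. Whether batches of extraction or sequencing followed the groups is not given in the sources used here. Their part in any difference between ages or between adult groups was therefore not tested.

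**Figure D1:**
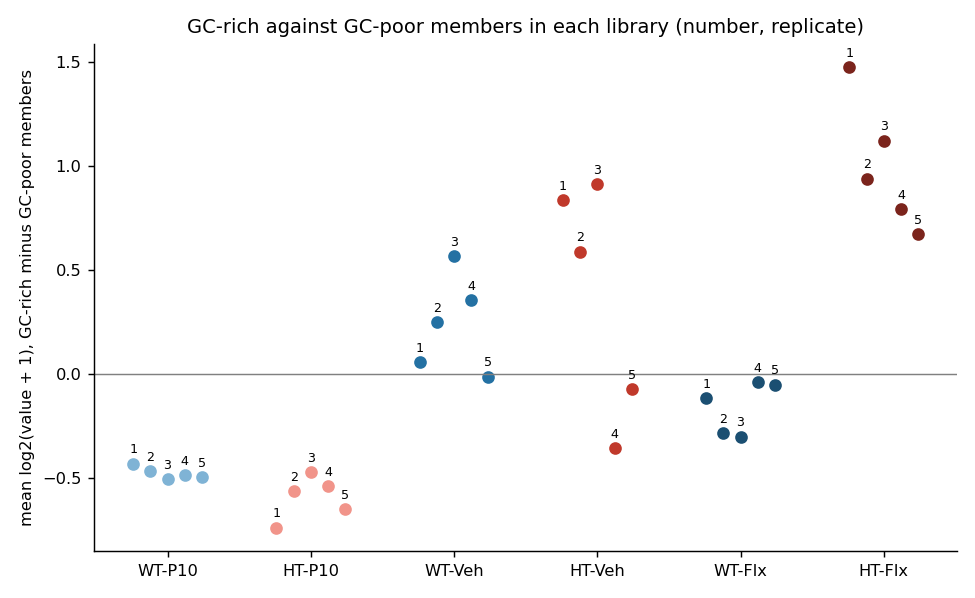
Difference between the mean log2 level of the 35 GC-rich and the 34 GC-poor guidance genes, by library (y axis, log2 units) and group (x axis), with 1 point per library. The HT-Flx libraries sit between 0.67 and 1.48 and the WT-Flx libraries between −0.30 and −0.04, and the HT-Veh libraries split into 3 high and 2 low ones.

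Levels between genes were set side by side per kilobase of the transcript with the longest coding sequence (normalised counts per kb, mean ± SD, n = 5). In WT-P10 brains the most abundant members were Efnb3, a transmembrane ephrin-B known from the corticospinal midline (1587 ± 101), Sema7a, the lipid-anchored semaphorin (1440.2 ± 57.1), Sema6b (1160.2 ± 25.5) and the receptor Epha5 (1070.5 ± 44.3). Efnb3 and Sema7a differed by less than the sum of their SDs. The least abundant were Ntn5 (6.42 ± 2.17), Epha1 (13.5 ± 2.47) and Efna4 (20.2 ± 2.82). In WT-Veh adults the order was Sema7a (2179.6 ± 320.4), Sema6b (1683 ± 204), Unc5a (1387 ± 145) and Efnb3 (1312 ± 125). The SD range of each of these 4 overlapped that of its neighbour in the order, and Efna4 (5.07 ± 2.65) and Epha1 (8 ± 3.26) were at the bottom.

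From P10 to P120 the guidance genes were mostly lower in the adult brain. In WT mice, 42 of 69 members (60.9%) were lower and 13 (18.8%) higher at P120 than at P10 (limma, Benjamini-Hochberg adjusted p under 0.05, n = 5 and 5), where 29.4% of all 17927 genes tested were lower and 28.9% higher. In HT mice, 37 (53.6%) were lower and 14 (20.3%) higher, against 25.3% and 25.8% of 17989 genes. The median log2 fold change was −0.44 over the members and −0.01 over all genes in WT mice, and −0.39 and −0.02 in HT mice. In these bulk samples, fewer cells of a type and less RNA per cell cannot be told apart. The 5 adult values lay wholly outside the 5 P10 values for 46 members in WT mice (66.7%) and 39 in HT mice (56.5%), against 45.6% and 40.2% of all genes.

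The 2 genotypes, which share no library, gave the same direction for every member past the threshold in both. Past it in both were 35 members that were lower and 13 that were higher. A further 7 were lower in WT mice alone (Sema4b, Sema4d, Sema6c, Efnb3, Epha2, Epha8 and Ephb3), Sema3e and Epha7 were lower and Efna1 higher in HT mice alone, and 11 passed in neither (Ntn1, Ntn3, Slit3, Robo3, Sema3f, Sema4a, Sema4f, Plxnb2, Plxnb3, Plxnd1 and Ephb4). The members that were lower in both had a median GC content of 50.01% and those that were higher 59.1%. Passing in 1 genotype alone shows no difference between the genotypes, which is tested below. How many of all genes passed in both genotypes, in neither, or in both with the correction was not counted. Both comparisons also hold age, saccharin and any run difference together, so a like direction in both is not particular to age. With GC content and length corrected, 34 of the 35 were still lower in both genotypes (all but Epha6) and 9 of the 13 were still higher in both (Ntn5, Unc5a, Slit1, Sema3b, Sema6b, Sema7a, Plxnb1, Epha10 and Ephb6). Without the vehicle libraries that go against their labels, 44 were lower and 13 higher in WT mice (63.8% and 18.8%, against 28.2% and 27.9% of all genes). In HT mice 34 were lower and 12 higher (49.3% and 17.4%, against 22.7% and 22.9%). The values of P10 and adult mice then did not overlap for 49 and 39 members (71.0% and 56.5%, against 47.7% and 41.5%).

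**Figure D2:**
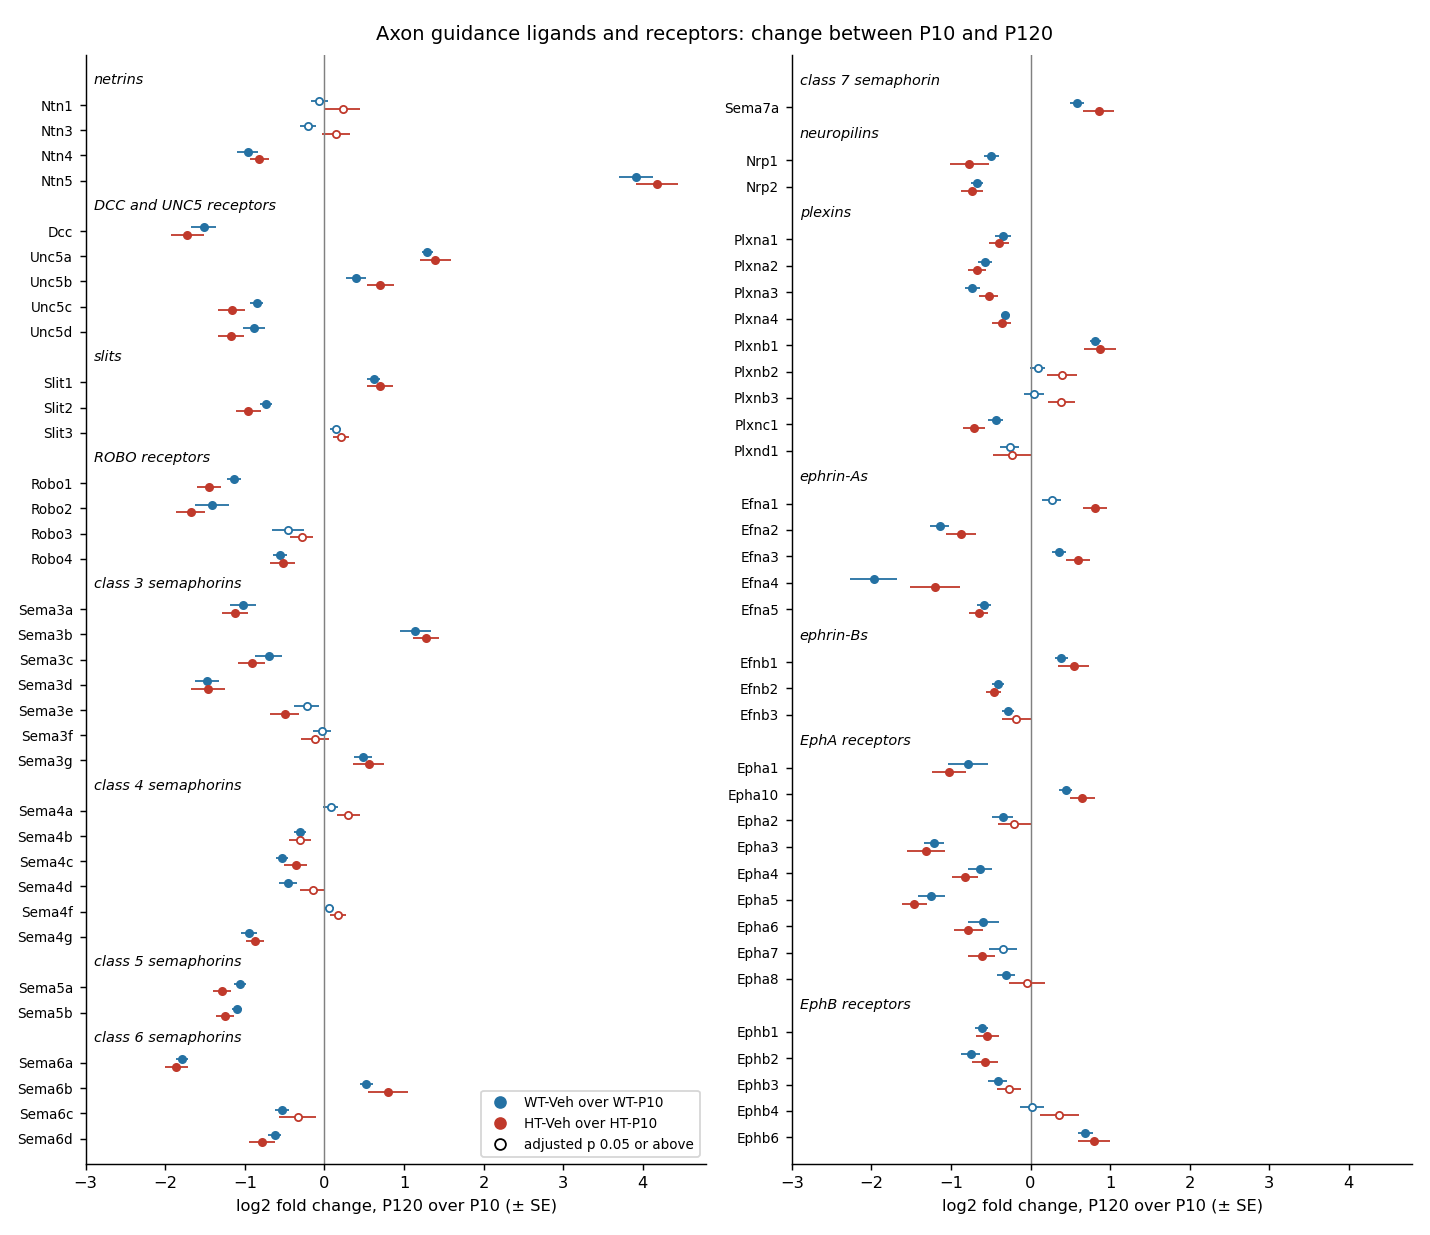
Log2 fold change of each guidance gene between P10 and P120 vehicle mice (x axis, P120 minus P10) by family (y axis), with WT and HT mice in separate colours and filled symbols for an adjusted p under 0.05. Most points lie left of 0, and Ntn5 stands alone at 3.92 and 4.18 in WT and HT mice.

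Among netrins and their receptors, Dcc, Unc5c and Unc5d were lower and Unc5a was higher in adults. Dcc, the receptor through which netrin-1 attracts axons, had 1722, 1634, 1811, 1863 and 1519 normalised counts in the WT-P10 libraries and 786, 649.9, 384, 559 and 678 in the WT-Veh libraries. In HT mice it had 2058, 1724, 1735, 1942 and 1741 at P10 and 327, 519, 534, 844 and 691 at P120. No adult library reached a P10 library, and Dcc was 2.87-fold lower in WT and 3.3-fold lower in HT adults (log2 fold change −1.52 ± 0.15 in WT and −1.72 ± 0.20 in HT mice, limma adjusted p = 3.0e-06 and 1.9e-05). Unc5c and Unc5d, repulsive netrin receptors, were also lower (−0.85 and −1.16 for Unc5c and −0.88 and −1.17 for Unc5d, WT then HT). Unc5a (chr13:54949411-55006018, plus strand) went the other way, with 2195, 2323, 2206, 2309 and 2224 in WT-P10 and 5242, 6307, 5548, 5828 and 4779 in WT-Veh, and with 1896, 2303, 2462, 2329 and 2256 in HT-P10 and 7186, 5688, 9306, 4303 and 4288 in HT-Veh. Every adult value exceeded every P10 value (log2 fold change 1.29 ± 0.07 in WT and 1.39 ± 0.19 in HT mice, adjusted p = 1.7e-08 and 7.6e-05), and with the GC correction the change was 1.15 and 1.06. Unc5b rose by less (0.39 and 0.70), and its WT change was 0.19 after the correction (adjusted p = 0.17).

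The ligands were not uniform. Ntn1 was at 1244, 1181, 1250.1, 1257 and 1131 counts in WT-P10 and 965, 1001, 1319, 1445 and 1126 in WT-Veh, ranges that overlap (log2 fold change −0.07 ± 0.11 in WT and 0.23 ± 0.22 in HT mice, adjusted p = 0.61 and 0.4). Ntn3 also missed the threshold in both genotypes, and Ntn4, a netrin of basement membranes, was lower (−0.97 and −0.82). Ntn5 (chr7:45684022-45694556, plus strand) showed the largest change of all members, with 6.01 to 15.3 counts in WT-P10, 142 to 181 in WT-Veh, 4.66 to 9.99 in HT-P10 and 94.4 to 201 in HT-Veh. These low P10 levels make its fold change sensitive to the added count of 1 (3.92 ± 0.21 in WT and 4.18 ± 0.27 in HT mice). Over the 5 receptors, the summed level per kb was 1883 ± 56.7 in WT-P10 and 2314 ± 132 in WT-Veh, with Unc5a making up most of the adult sum.

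Slits and their receptors parted in a like manner. Robo1 (chr16:72308306-73046095, plus strand) had 2784, 3017, 2878, 3028 and 2774 in WT-P10 and 1474, 1544, 1169, 1173 and 1251 in WT-Veh, and 3479, 3321, 2970.1, 3358 and 3024 and 842, 1180.3, 1037, 1557 and 1426 in the HT groups. The groups did not overlap in either genotype (log2 fold change −1.14 ± 0.09 in WT and −1.45 ± 0.15 in HT mice, adjusted p = 2.1e-07 and 8.2e-06). Robo2 was lower still (−1.41 and −1.68), between 5648 and 6663 in WT-P10 and between 1337 and 3802 in WT-Veh. Robo4, known from endothelial cells, was lower (−0.56 and −0.53), and Robo3, which serves commissural axons, did not pass the threshold before the correction (−0.46 and −0.29) and did after it (−0.66 and −0.63, adjusted p = 0.018 and 0.0032). The 4 ROBO receptors summed to 1515 ± 38.4 per kb in WT-P10 and 731 ± 191 in WT-Veh. Slit2 was lower, from 1559, 1617, 1546, 1642 and 1626 to 969, 1029.6, 805, 1002 and 1012 in WT mice (−0.73 ± 0.07 in WT and −0.96 ± 0.15 in HT mice, adjusted p = 3.0e-06 and 0.00024), whereas Slit1 was higher (0.62 and 0.70) and Slit3 did not pass (0.14 and 0.21). The slits thus summed to 1018 ± 34.2 per kb at P10 and 1267 ± 127 at P120 in WT mice, while the ROBO sum fell.

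A pair of promoters is shown for the member that rose most and for a receptor that fell, with each CG dinucleotide in capitals (RefSeq, GRCm38.p6, 250 bases before to 50 after the annotated start, both on the plus strand). The Ntn5 promoter, chr7:45683772-45684071, held 3 CG, and 76.7% of the 32851 promoters in the table held at least as many. The Robo1 promoter, chr16:72662899-72663198, held 15, and 34.6% of promoters held at least as many. The RefSeq start of Robo1 lies inside the GENCODE gene, downstream of its outermost start. Of the members, 59 had 75 promoters in the table, with a median of 19.0 CG. Over all promoters, which belong to 27025 genes, more than the deposited values cover, it was 7. No median over only the genes tested here was computed. The median was 18.5 over 34 promoters of genes lower in both genotypes and 23.0 over 13 promoters of genes higher in both.
Ntn5: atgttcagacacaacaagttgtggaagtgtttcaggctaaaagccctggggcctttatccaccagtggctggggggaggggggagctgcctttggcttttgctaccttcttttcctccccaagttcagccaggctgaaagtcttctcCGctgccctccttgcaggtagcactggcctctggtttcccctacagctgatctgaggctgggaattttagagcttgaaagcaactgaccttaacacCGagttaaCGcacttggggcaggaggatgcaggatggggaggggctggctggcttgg
Robo1: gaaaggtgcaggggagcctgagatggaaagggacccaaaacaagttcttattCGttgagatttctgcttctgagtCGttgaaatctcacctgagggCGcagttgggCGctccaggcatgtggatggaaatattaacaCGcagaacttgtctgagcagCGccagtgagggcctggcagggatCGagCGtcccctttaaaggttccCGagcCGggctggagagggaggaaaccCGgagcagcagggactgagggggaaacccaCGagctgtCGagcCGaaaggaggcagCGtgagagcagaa

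The class 3 semaphorin pathway was lower in most of its parts. Sema3a, a repellent of sensory and cortical axons, had 858, 803, 868, 859 and 876 counts in WT-P10 and 494, 495, 258, 390.1 and 523 in WT-Veh, without overlap (−1.02 ± 0.16 in WT and −1.12 ± 0.16 in HT mice, adjusted p = 0.00013 and 0.0001). Sema3c (−0.70 and −0.92) and Sema3d (−1.47 and −1.47) were lower too. Sema3b was higher, between 98.3 and 180.2 in WT-P10 and between 204 and 388 in WT-Veh (1.14 ± 0.19 in WT and 1.28 ± 0.17 in HT mice), and so was Sema3g (0.48 and 0.56). Both neuropilins, the ligand-binding subunits, were lower, Nrp1 from 941, 1023, 1037, 1041 and 942 to 839.5, 691, 603, 638 and 786 in WT mice (−0.50 ± 0.09 in WT and −0.77 ± 0.24 in HT mice) and Nrp2 with changes of −0.67 and −0.73. All 4 A-type plexins, the signalling subunits, were lower in both genotypes. The smallest of these changes was that of Plxna4, from 5130.1, 5311, 5035, 5433 and 4831 to 4026, 4590.5, 3878, 4077 and 4134 in WT mice (−0.32 ± 0.06 in WT and −0.36 ± 0.12 in HT mice, adjusted p = 0.00067 and 0.022), and Plxna3 changed most in WT mice (−0.73).

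Membrane-bound semaphorins moved in both directions. Sema6a, whose receptors are Plxna2 and Plxna4, had 3788, 4325, 4339, 4242 and 4253 counts in WT-P10 and 1165, 1082, 1126, 1364 and 1337 in WT-Veh. In HT mice it went from 3097, 4152, 4168, 4238 and 4129 to 838, 1063, 964, 1382 and 1237. It was 3.46-fold and 3.64-fold lower, the largest fall among members with a mean of at least 50 (log2 fold change −1.79 ± 0.08 in WT and −1.86 ± 0.15 in HT mice, adjusted p = 2.7e-09 and 6.5e-07). Its paralog Sema6b was higher (0.53 and 0.80), as was Sema7a, with 4759, 5019, 4698, 4772 and 4493 in WT-P10 and 5703, 7298, 8399.8, 7884 and 6645 in WT-Veh (0.59 ± 0.09 in WT and 0.86 ± 0.19 in HT mice, adjusted p = 0.00013 and 0.0025). Plxnc1, the plexin that binds Sema7a, was lower (−0.44 and −0.71). Both class 5 semaphorins were lower (−1.06 and −1.29 for Sema5a and −1.10 and −1.25 for Sema5b), and their summed level per kb was 647 ± 18.1 in WT-P10 and 307 ± 15.3 in WT-Veh.

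Sema4d had 3520.4, 4256, 4279, 3393 and 4929 counts in WT-P10 and 2492, 2889, 3437, 3213 and 2763 in WT-Veh (−0.46 ± 0.11, adjusted p = 0.0034), and in HT mice its change did not pass the threshold (−0.15 ± 0.16, adjusted p = 0.45). The difference between these changes was tested and did not pass (interaction 0.31 ± 0.20, adjusted p = 0.88). Plxnb1, the receptor of Sema4d, rose from 3655, 3479.9, 3489, 4008 and 3849.9 to 6333, 6417, 7193, 6685 and 5916 in WT mice, and in HT mice it lay between 3011 and 4112 at P10 and between 4754 and 11106 at P120 (0.82 ± 0.07 in WT and 0.88 ± 0.20 in HT mice, adjusted p = 4.6e-07 and 0.0033). With the GC correction its change was 0.51 and 0.43. The other members of the B and D plexins, Plxnb2, Plxnb3 and Plxnd1, did not pass in either genotype. Of the class 4 semaphorins, Sema4c and Sema4g were lower in both genotypes, Sema4g at −0.95 and −0.87.

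**Figure D3:**
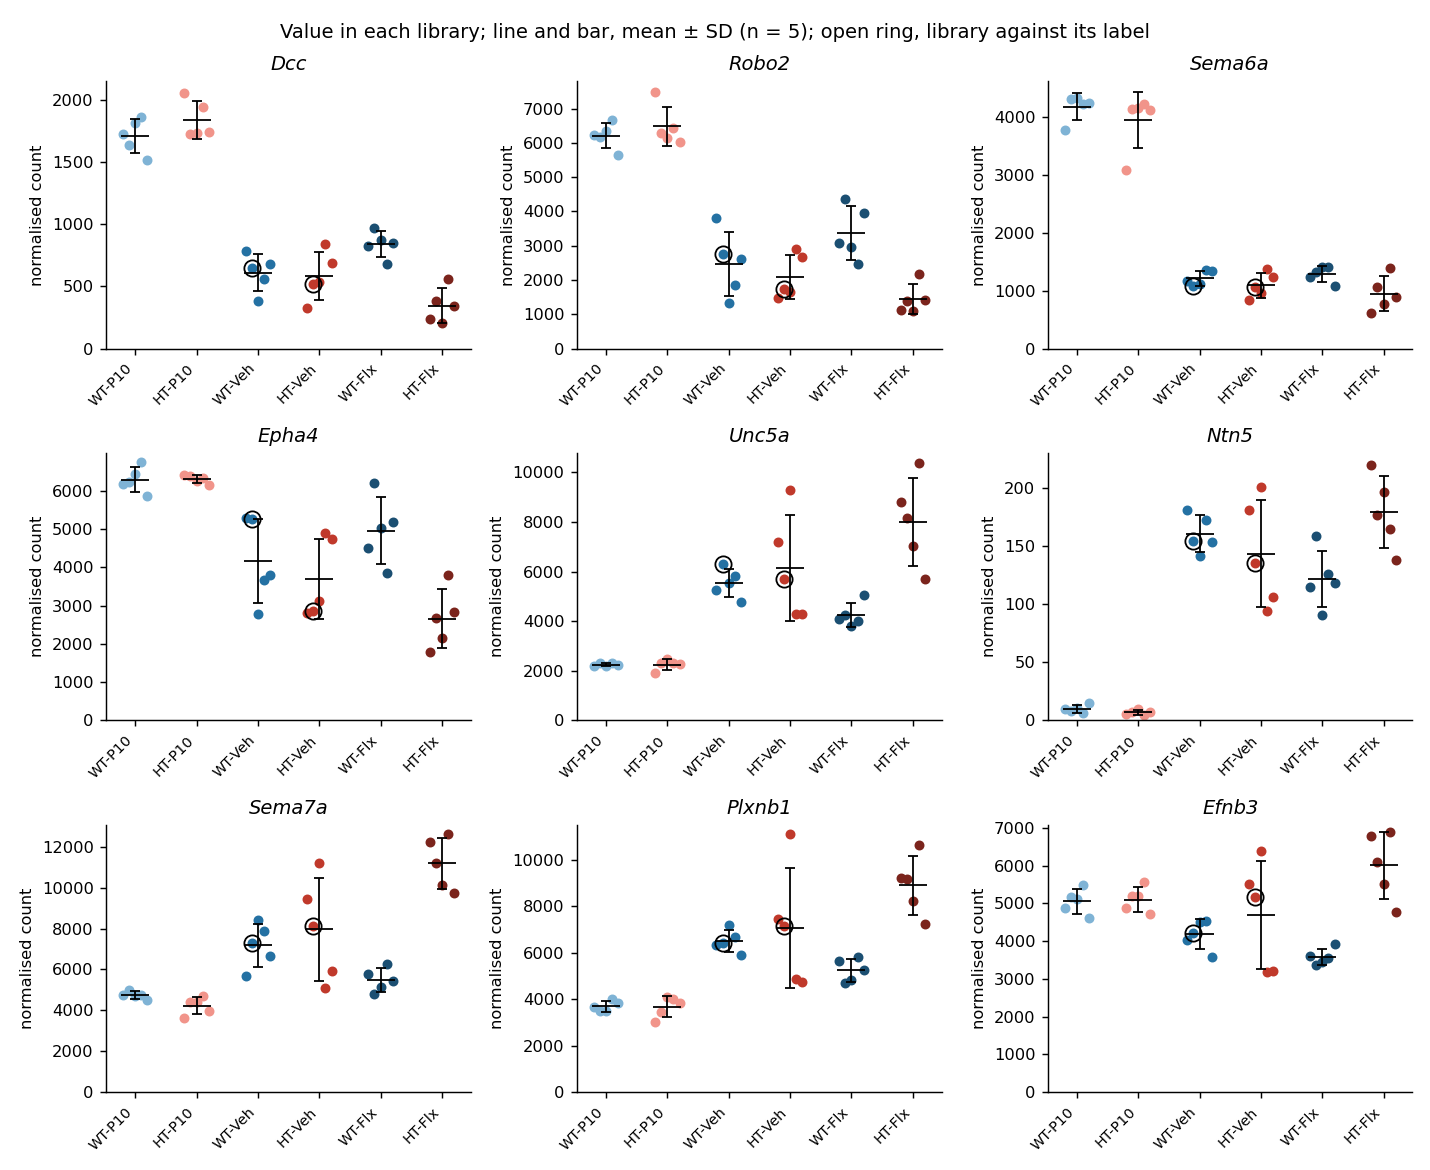
Normalised read counts of 9 guidance genes in each of the 30 libraries by group, with 1 point per library and a bar at the group mean. Dcc, Robo2, Sema6a and Epha4 are higher in every P10 library than in every vehicle library at P120, and Unc5a is the reverse.

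Eph receptors were mostly lower in adults. Epha4 (chr1:77367185-77515088, minus strand), which binds ephrins of both kinds, had 6164, 6227, 6428, 6742 and 5864 in WT-P10 and 5289.6, 5268, 2785, 3657 and 3789.9 in WT-Veh, and 6419, 6381, 6251, 6328 and 6152 and 2804, 2859, 3114, 4888 and 4751 in the HT groups (−0.64 ± 0.15 in WT and −0.82 ± 0.16 in HT mice, adjusted p = 0.0025 and 0.0011). Epha3 (−1.21 and −1.32) and Epha5 (−1.25 and −1.46) fell by more, and Epha10, which lacks kinase activity, was higher (0.44 and 0.65). Ephb1 went from 2781, 2850.1, 2912, 2619 and 2760.1 to 1622, 1619, 2164, 1936 and 1793 in WT mice (−0.62 ± 0.08 in WT and −0.54 ± 0.14 in HT mice), Ephb2 was lower (−0.75 and −0.57), and Ephb6, the other kinase-dead receptor, was higher (0.69 and 0.80). Of the 14 Eph receptors these were the only members that rose in both genotypes. Ephb4, a receptor of veins, did not pass (0.02 and 0.36).

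Among the ephrins, Efna5, which maps retinal axons in the midbrain, was lower, from 678, 619, 629, 724 and 658 to 430.1, 506, 379, 431 and 468 in WT mice (−0.58 ± 0.09 in WT and −0.65 ± 0.12 in HT mice, adjusted p = 9.3e-05 and 0.00075). Efna2 was lower (−1.14 and −0.87) and Efna3 and Efnb1 were higher (0.36 and 0.60 for Efna3 and 0.39 and 0.54 for Efnb1). The rise of Efna3 was 0.03 and 0.08 after the GC correction and no longer passed. Efnb3 had 4877, 5174, 5116, 5472 and 4617 in WT-P10 and 4019, 4219.9, 4517, 4540.1 and 3580.3 in WT-Veh (−0.28 ± 0.08 in WT and −0.18 ± 0.19 in HT mice, adjusted p = 0.0066 and 0.44). Efna1 was higher in HT adults (0.81 ± 0.15, adjusted p = 0.00075) and did not pass in WT mice (0.27 ± 0.12).

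Genes of other kinds moved with age beside the guidance genes. All 16 markers of immature neurons were lower in adults of both genotypes (summed level 105927 to 158506 in WT-P10 and 40527 to 49694 in WT-Veh). Of 10 genes of dividing progenitors 9 were lower in WT and 8 in HT mice (sums 4913 to 6994 and 1597 to 1988 in WT mice). Of 16 oligodendrocyte genes 10 were higher and 1 lower in WT mice, with sums of 137441 to 267538 and 199104 to 296462. Of 14 genes of endothelial cells and pericytes 10 were lower and 3 higher (sums 20042 to 21619 and 17133 to 19348). No marker of these lists was at 0 in every library of a group, and their part in the changes of the guidance genes was not tested.

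In the wider pathway the other cues and receptors were more often lower than higher, and the effectors lay nearer the share over all genes. Of 35 other guidance cues and receptors, 17 were lower and 6 higher in WT adults, and 13 and 4 in HT adults (median −0.21 and −0.25). Draxin, a secreted repellent that binds DCC, changed by −4.81 in WT and −4.21 in HT mice, and Neo1, the DCC paralog neogenin, by −0.88 and −0.97. The adhesion molecules Chl1 (−1.59 and −1.88) and L1cam (−1.13 and −1.32) were lower. Of 51 intracellular effectors, 19 were lower and 13 higher in WT mice, and 18 and 10 in HT mice (37.3% and 25.5% in WT, 35.3% and 19.6% in HT mice, against the 29.4% and 28.9% and the 25.3% and 25.8% of all genes given above). With GC content and length corrected, 19 cues and receptors were lower and 7 higher in WT and 20 and 8 in HT mice. Of the effectors, 21 were then lower and 15 higher in WT mice (41.2% and 29.4%), and 20 and 16 in HT mice (39.2% and 31.4%). Over all genes, 27.7% were lower and 31.4% higher in WT mice after this correction, and 26.5% and 29.2% in HT mice. Dpysl3 (−3.41 and −3.45), a collapsin response mediator, and the growth cone protein Gap43 (−1.70 and −1.66) were lower, while Ngef, the guanine nucleotide exchange factor ephexin that acts under EphA receptors, was higher (0.84 and 0.97).

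Whether the change with age differed by genotype was tested as an interaction over the 20 P10 and vehicle libraries. No member passed, where 0% of 17978 genes passed (limma). At an unadjusted p under 0.05 there was 1 member, Efna1 (interaction 0.55 ± 0.18, unadjusted p = 0.0072, adjusted p = 0.88), against 3.4% of all genes. Without the vehicle libraries that go against their labels there was again 1, against 3.41% of all genes. Next by p were Efna4 (0.78 ± 0.43, unadjusted p = 0.086) and Sema5a (−0.23 ± 0.13, unadjusted p = 0.092). Interactions ran from −0.31 for Unc5c to 0.78 for Efna4, with a median SE of 0.22.

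At P10 no guidance gene differed past the threshold between the genotypes. None of 68 members tested passed in HT-P10 against WT-P10, where 0.0224% of 17896 genes did (limma, n = 5 and 5). Ntn5 lay below the mean of 10 there and was not tested. At an unadjusted p under 0.05, 9 members were higher and 7 lower (23.5%), against 12.6% of all genes. The values of 3 members formed groups that did not overlap (Slit2, Sema3a and Sema3c), against 3.12%. With GC content and length corrected, 9 were higher and 3 lower at an unadjusted p under 0.05 (17.6%, against 12.0% of all genes). Only Slit2 then had groups that did not overlap (1.47%, against 2.81% of all genes). Its corrected difference was 0.17, with 0.14 for Sema3c and 0.13 for Epha7. Sema3c, a secreted semaphorin, had 944, 905, 953, 1008 and 913 counts in WT-P10 and 1072, 1071, 1067, 1117 and 1055 in HT-P10, each HT value above each WT value (0.19 ± 0.04, adjusted p = 0.25). Slit2 had 1559, 1617, 1546, 1642 and 1626 and 2064, 1755, 1697, 1776 and 1800.2 (0.18 ± 0.05, adjusted p = 0.29), also without overlap. Epha7 had 1728, 1839, 1750.3, 1682 and 1578 and 2060.5, 1805, 1831, 2002 and 1976 (0.17 ± 0.05, adjusted p = 0.3), with overlapping groups. Of the 34 members on the GC-poor side 23 were higher in HT-P10, and of the 34 on the GC-rich side 7 were. Over the 68 members the largest differences were −0.34 for Epha2 and 0.19 for Sema3c, with a median SE of 0.06.

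In vehicle adults there was again no member past the threshold. With the 4 HT-Veh and 4 WT-Veh libraries whose Arid1b level went with their labels, 0 of 68 members passed (limma), and 0% of 17784 genes did, and Arid1b itself did not pass (−0.49 ± 0.13, unadjusted p = 0.0034, adjusted p = 1). Efna4 lay below the mean of 10 and was not tested. Sema4a was the only member with an unadjusted p under 0.05, against 1.29% of all genes. The membrane-bound Sema4a had 1842.8, 1801, 1512 and 1396 counts in the WT-Veh libraries and 2060.3, 2075, 3102 and 1842.9 in the HT-Veh libraries. These did not overlap, and the highest HT-Veh value stood far above the rest (0.45 ± 0.19, unadjusted p = 0.034, adjusted p = 1). Sema4a, higher, and Sema5b, lower (−0.24 ± 0.14), were the members whose groups did not overlap, against 1.04% of all genes. Efna1 came next by unadjusted p (0.33 ± 0.19, unadjusted p = 0.11). With all 5 and 5 libraries as labelled, again 0 members passed and 0 had an unadjusted p under 0.05 (against 1.14% of all genes). Of the members 0 had groups that did not overlap (against 0.191%), and Sema4a was at 0.33. The median SE over the members was 0.23, so differences of the size seen at P10 were not detectable here.

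Between HT-Flx and WT-Flx adults most guidance genes differed, and the direction went with GC content. Of 69 members, 39 (56.5%) were higher and 21 (30.4%) lower in HT-Flx (limma, n = 5 and 5), against 33.1% and 30.5% of 17799 genes, and the groups did not overlap for 48 members (69.6%), against 48.5% of genes. Of the 35 members on the GC-rich side 32 were higher and 0 lower, and of the 34 on the GC-poor side 7 were higher and 21 lower. Across the 69 members the log2 fold change and GC content had r = 0.891, and across 17788 genes r = 0.729, as a description in which all points share the same 10 libraries. After the correction for GC content and length, 9 were higher and 14 lower (13.0% and 20.3%), against 21% and 16.5% of genes. The groups then did not overlap for 15 members (21.7%), against 25.3% of genes. The median member change moved from 0.43 to −0.01. Before the correction, 9 members passed in neither direction (Ntn4, Robo3, Sema5b, Nrp2, Plxna4, Efna4, Efna5, Efnb2 and Epha1).

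**Figure D4:**
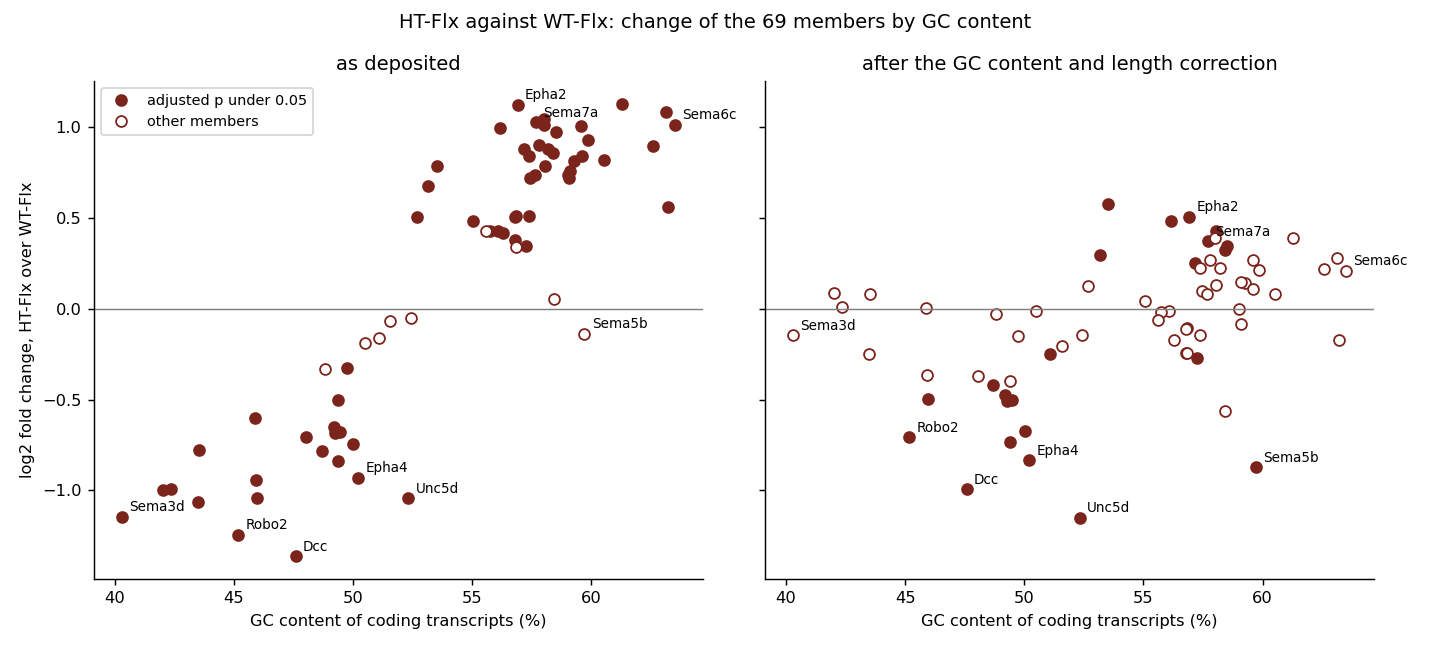
Log2 fold change of each guidance gene between HT-Flx and WT-Flx (y axis) against the GC content of its transcripts (x axis, percent), before and after the GC and length correction. Before it GC-rich members lie mostly above 0 and GC-poor ones mostly below, with Dcc lowest at −1.36, and after it most lie near 0, with Dcc then at −0.99 and Epha2 at 0.51.

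The receptors that were lower before and after the correction were Dcc, Unc5c, Unc5d, Robo1, Robo2, Nrp1, Plxnc1, Epha3 and Epha4, with the ligands Slit2 and Sema6d, 11 members in all. Dcc had 827, 969, 871, 682 and 851 counts in WT-Flx and 236, 385, 205, 560.5 and 343 in HT-Flx, without overlap. It was 2.57-fold lower (−1.36 ± 0.23, adjusted p = 0.00026), and −0.99 after the correction (adjusted p = 0.0015). Unc5d, the GC-poor UNC5 receptor printed above, had 1213, 1477, 1454, 1099 and 1366 and 414, 777, 463, 999 and 708 (−1.04 ± 0.21, adjusted p = 0.00093), and −1.15 after it. Epha4 had 4502, 6201, 5032, 3857 and 5186 and 1798, 2677, 2154, 3807 and 2835, also without overlap (−0.93 ± 0.18, adjusted p = 0.00075, and −0.83 after it). Robo2 (−1.24 ± 0.20, then −0.71), Robo1 (−0.68 ± 0.16, then −0.50), Nrp1 (−0.74 ± 0.18, then −0.68) and Slit2 (−0.78 ± 0.19, then −0.42) were lower by both measures. Sema5b and Efnb2 were lower only after it (−0.87 and −0.25), and Sema4f was higher before (0.34 ± 0.07) and lower after (−0.27).

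Another 9 members were higher before and after. They were the semaphorins Sema3f, Sema3g, Sema4d and Sema7a, the plexin Plxnb2, the ephrins Efna1 and Efna2 and the receptors Epha2 and Ephb4. How many of all genes passed in the same direction both times was not counted, for lower or for higher genes. Epha2 had 64.9, 52.8, 37.1, 63.7 and 55.2 counts in WT-Flx and 142, 119, 104, 128 and 103 in HT-Flx (1.12 ± 0.17, adjusted p = 0.00015, and 0.51 after it). Sema7a had 5756, 4789, 5167, 6292 and 5417 and 12213, 11212, 10111, 12631 and 9741 (1.03 ± 0.10, adjusted p = 3.1e-05, and 0.37 after it), and every HT-Flx value was above every WT-Flx value. Sema4d had 2551, 2244, 2469, 2683 and 2506 and 4464, 4071, 3885, 3708 and 3770.3 (0.68 ± 0.08, then 0.30). Ephb4, known from veins, was at 1.04 ± 0.12 and then 0.43, and Efna1, an ephrin of endothelial cells, at 0.78 ± 0.11 and then 0.58. Robo4, also known from endothelial cells, was higher before the correction and changed sign with it (given below). Markers of endothelial cells and pericytes summed to 15430.5 to 17413 in WT-Flx and 20218 to 22823 in HT-Flx. Of these 14 genes 7 were higher and 3 lower, against 33.1% and 30.5% of all genes. Their sums are uncorrected, the sums of whole libraries did not overlap either (given below), and the part of these markers in the differences was not tested.

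For the remaining members the difference shrank or changed sign with the correction. Unc5a, GC-rich in the stretch printed above, had 4083, 4240.2, 3799.9, 4002 and 5073 in WT-Flx and 8799, 8162, 7051, 10365 and 5688 in HT-Flx, and its difference went from 0.90 ± 0.14 (adjusted p = 0.00019) to 0.22 (adjusted p = 0.1). Sema6c went from 1.01 ± 0.12 to 0.21 and Sema3d from −1.14 ± 0.21 to −0.15, the extremes of GC content on either side. Ntn1 (1.01 ± 0.20, then 0.39), Plxnb1 (0.76 ± 0.11, then 0.15), Efnb3 (0.73 ± 0.10, then 0.08), Ephb1 (0.51 ± 0.11, then 0.13), Sema3a (−0.94 ± 0.21, then −0.36) and Sema6a (−0.50 ± 0.18, then −0.39) passed the threshold only before it. Plxna4 (−0.07 ± 0.15) and Efna5 (−0.33 ± 0.14) passed neither time. In all, 15 members past the threshold changed sign, and how many of all genes did so was not counted.

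Members past the threshold whose values are not given above follow by role, with the log2 difference before and then after the correction. The ligands held both directions, with the GC-poor Sema3c and Sema3e lowest before it. They were Ntn3 (0.93, then 0.21), Ntn5 (0.56, then −0.17), Slit1 (0.74, then −0.00), Slit3 (0.38, then −0.24), Sema3b (0.81, then 0.14), Sema3c (−1.06, then −0.25), Sema3e (−1.0002, then 0.09), Sema3f (0.86, then 0.32) and Sema3g (0.997, then 0.48). Membrane-bound semaphorins were Sema4a (0.43, then −0.01), Sema4b (0.51, then −0.11), Sema4c (0.78, then 0.13), Sema4g (0.51, then −0.11), Sema5a (−0.60, then 0.01), Sema6b (1.08, then 0.28) and Sema6d (−0.65, then −0.47), and ephrins Efna2 (0.98, then 0.34), Efna3 (0.84, then 0.11) and Efnb1 (0.88, then 0.23). None of the class 4 members of this list kept a difference above 0.2 on the log2 scale. Receptors of netrins, slits and semaphorins were Unc5b (1.005, then 0.27), Unc5c (−0.84, then −0.73), Robo4 (0.51, then −0.14), Plxna1 (0.72, then 0.10), Plxna2 (−0.33, then −0.15), Plxna3 (0.49, then 0.04), Plxnb2 (0.88, then 0.25), Plxnb3 (0.43, then −0.02), Plxnc1 (−0.69, then −0.51) and Plxnd1 (0.82, then 0.08). Eph receptors were Epha3 (−1.04, then −0.50), Epha5 (−0.78, then 0.08), Epha6 (−0.70, then −0.37), Epha7 (−0.99, then 0.01), Epha8 (1.13, then 0.39), Epha10 (0.72, then −0.09), Ephb2 (0.84, then 0.22), Ephb3 (0.42, then −0.17) and Ephb6 (0.90, then 0.27), and of these Epha5, Epha7, Epha10 and Ephb3 changed sign.

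By family, all 6 class 4 semaphorins, all 5 EphB receptors and the class 7 semaphorin were higher before the correction, and 1 of each of these families after it. The DCC and UNC5 receptors split into 2 higher and 3 lower, and the ROBO receptors into 1 and 2. The 9 plexins held 6 higher and 2 lower members, and the 9 EphA receptors 3 and 5. In the wider pathway 16 of 35 other cues and receptors were higher and 14 lower, and of 51 effectors 25 were higher and 9 lower. These are 45.7% and 40.0% of the cues and receptors and 49.0% and 17.6% of the effectors, against 33.1% and 30.5% of all genes. After the correction 3 cues and receptors were higher and 8 lower (8.6% and 22.9%). Of the effectors 20 were then higher and 3 lower (39.2% and 5.9%), against 21% and 16.5% of all genes. Sdc3, a heparan sulphate proteoglycan, was at 1.07 and then 0.51, and Ptprd, a receptor phosphatase, at −1.33 and then −0.79. Markers of immature neurons summed to 39554 to 43236 in WT-Flx and 52882 to 72290.4 in HT-Flx, and those of oligodendrocytes to 200008 to 268207 and 284975 to 317032. Sums of cortical excitatory neuron genes (40315 to 52971 and 55821 to 107524), oligodendrocyte precursor genes (19266 to 22059.6 and 23519 to 35400.4) and microglial genes (9742 to 11846 and 11903 to 18293) did not overlap between the groups either. Those of astrocytes, general, striatal, cerebellar granule and thalamic, midbrain and hindbrain neurons, meningeal fibroblasts, choroid plexus and dividing progenitors overlapped. All these sums are uncorrected, and the sums of whole libraries did not overlap either (32484635 to 33588499 in WT-Flx and 37083545 to 41522113 in HT-Flx). The part of these cell types, of the library sums and of GC content in the differences was not tested.

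The effect of early fluoxetine within a genotype was tested against vehicle mice of that genotype. Treatment was given to dams and the labels name no dam or litter, so mice of a group may not be independent. These comparisons share their fluoxetine groups with the comparison above. In HT mice, 0 of 69 members passed (limma), and 0% of 17676 genes did. With all 30 libraries in 1 fit, which share 1 estimate of the spread, 37 passed (26 higher and 11 lower). In that fit 5916 of all 17676 genes passed as well (3022 higher and 2894 lower). At an unadjusted p under 0.05, 15 were higher and 6 lower in HT-Flx (30.4%), against 23.1% of all genes, and 2 members (Sema3b and Epha2) had groups that did not overlap, against 1.62%. Epha2 had 87.5, 83.3, 84.6, 43.2 and 62.0 counts in HT-Veh and the higher HT-Flx values given above (0.75 ± 0.21, adjusted p = 0.22). Sema3c (−0.77 ± 0.24) and Sema3b (0.54 ± 0.17) followed, at an adjusted p of 0.22 and 0.22. Sema3c had 442, 431, 560.5, 823 and 683 in HT-Veh and 267, 325, 231, 522 and 400.3 in HT-Flx, with overlap, and Sema3b 402, 376, 403, 240.1 and 263 and 472, 576, 465, 421 and 477, without it. After the GC correction the 3 differences were 0.45, −0.33 and 0.21. The balance then turned, with 3 members higher and 6 lower at an unadjusted p under 0.05 (13.0%, against 10.9% of all genes). Only Epha2 then had groups that did not overlap (1.45%, against 0.984%). Without HT-Veh replicate 2, uncorrected, 15 were higher and 7 lower at an unadjusted p under 0.05 (31.9%, against 18.3% of all genes). The groups then did not overlap for Sema3b, Sema4g, Plxnb3 and Epha2 (5.80%, against 2.43%).

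In WT mice, fluoxetine gave 0 of 69 members past the threshold (limma), and 0% of 17865 genes passed. At an unadjusted p under 0.05, 7 were higher and 24 lower in WT-Flx (44.9%), against 25.2% of all genes, and 9 members (13.0%) had groups that did not overlap, against 6.41%. Of these, Slit2, Sema3a, Sema3d and Epha3 were higher and Sema4c, Sema6c, Plxnb1, Efnb1 and Epha2 lower. Sema6c had 1218, 1306, 1549, 1491 and 1170.3 in WT-Veh and 962, 760.3, 1106, 1005 and 823 in WT-Flx (−0.54 ± 0.12, adjusted p = 0.085). Slit2 had 969, 1029.6, 805, 1002 and 1012 and 1261, 1273, 1363, 1249.9 and 1101 (0.38 ± 0.09, adjusted p = 0.085), and Sema6b was at −0.44 ± 0.10 (adjusted p = 0.085). With the GC correction these were −0.22, 0.30 and −0.12. The mostly lower pattern was not seen after it, when 8 members were higher and 1 lower at an unadjusted p under 0.05 (13.0%, against 10.99% of all genes). Slit2, Sema5b and Epha2 then had groups that did not overlap (4.35%, against 2.10%). Without WT-Veh replicate 2, uncorrected, 8 were higher and 20 lower at an unadjusted p under 0.05 (40.6%, against 21.2% of all genes). In that fit 9 had groups that did not overlap (13.0%, against 6.89%). Without WT-Veh replicate 1, 13 members passed (2 higher, 11 lower), and without WT-Veh replicate 5, 8 passed (1 higher, 7 lower). Without any other library of the 10, including the library that went against its label, 0 passed. Over all genes, leaving out 1 library gave 0 to 1400 past the threshold (0 to 276 higher, 0 to 1124 lower).

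Whether the genotype difference depended on fluoxetine was tested as an interaction over the 20 P120 libraries. Of 69 members, 27 (39.1%) were higher and 10 (14.5%) lower (the HT minus WT difference under fluoxetine less that under vehicle), against 15.8% and 11.5% of 17796 genes. Without the vehicle libraries that go against their labels 0 members passed (18 libraries, median member interaction 0.46 against 0.40), and with the GC correction on all 20 libraries 0 passed (median 0.00). It was also 0 when any 1 of 8 libraries was left out (HT-Flx replicate 1, HT-Veh replicates 4 and 5, WT-Flx replicates 2 and 3, WT-Veh replicates 2, 3 and 4), and for the other 12 it was between 15 and 49. Over all genes, leaving out 1 library gave 0 to 7667 past the threshold. Dcc gave −1.26 ± 0.36 (adjusted p = 0.035) and −1.002 after the correction (adjusted p = 0.12), and Epha2 1.31 ± 0.27 and 0.78. Of the 35 GC-rich members 24 were among the higher and 0 among the lower, and of the 34 GC-poor members 3 and 10. By family, the class 3 semaphorins held 2 higher and 4 lower, the EphA receptors 3 and 2, the class 4 semaphorins 4 and 0, and the neuropilins 0.

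Across all 30 libraries the members most like Dcc in log2 level were Unc5d (r = 0.985), Robo2 (r = 0.982) and Epha3 (r = 0.979). Those most like Robo1 were Epha5 (r = 0.975), Dcc (r = 0.974) and Sema5a (r = 0.971), and those most like Epha4 were Plxnc1 (r = 0.972), Unc5d (r = 0.972) and Sema3c (r = 0.963). All of these are receptors except Sema5a and Sema3c. The points share their libraries, including age and the GC differences between libraries, so the values are a description only.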

How the data were processed

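RNA from whole brains of 30 male mice was sequenced by the authors from TruSeq v2 libraries, whose kit does not mark strand, so reads from a gene and an antisense partner cannot be told apart. The submitters' processing notes name Salmon 1.1.0, R 4.1.1, DESeq2 1.30.1 and GRCm38. The deposited values are the authors' normalised read counts per gene (unit signal, not whole numbers), made by summing transcript estimates to genes and dividing by DESeq2 size factors, so no count model was fitted and the depth of single libraries is not known from them.

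Genes were matched by identifier to GENCODE M21, which gave a symbol for 99.9% of 19737 genes, and GC content and length were taken over each gene's transcripts. Values were tested as log2(value + 1) in limma 3.58.1 (R 4.3.3) with an intensity trend, over genes with a mean of at least 10 in the libraries of a comparison, and p-values were adjusted by Benjamini-Hochberg over all genes tested, with a threshold of 0.05. Log2 fold changes are on that scale and understate those of low genes. Each age, genotype and fluoxetine comparison used the libraries of its own groups, HT-Veh against WT-Veh used replicates 1, 3, 4 and 5 of each, and interactions used 20 libraries. The correction centred genes of 10 GC bins by 10 length bins within each library. The scripts were tested on simulated data.

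The members, gene lists and tests were chosen with earlier results of these data known. The genes named in the text are those past the threshold in each genotype or fluoxetine comparison (or, with none, the 3 with the smallest p), the 6 largest changes per direction with a mean of at least 50 in each age comparison, 16 members given throughout (Ntn1, Dcc, Unc5a, Slit2, Robo1, Sema3a, Nrp1, Plxna4, Sema4d, Plxnb1, Sema6a, Sema7a, Efna5, Epha4, Efnb3 and Ephb1), and the 3 members most like Dcc, Robo1 and Epha4. Members named beyond these, and the genes named from the wider pathway lists, were chosen after their values were seen. Each mouse is 1 library, and the p-values measure the spread between mice, not between dams or litters. The number of dams behind each group is not given in the labels, so litter and treatment cannot be told apart. Alternatives covered the pseudocount, filter, scaling, intensity trend, a fit over all libraries, the replicate number as a block, each library left out, and the libraries that go against their labels. The GC correction without those libraries was added after seeing the data. Replicate numbers are shared by groups in the labels and were not used to pair the mice in the main fits. In no comparison did every pair of same-numbered libraries deviate together (correlations of residuals above 0.1). This check cannot exclude a shared litter or batch. Lists of astrocytes, microglia, neurons of named regions, meninges and choroid plexus were computed as well and are given once in the closing section.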

Additional observations from a re-analysis of the deposited data

Results flagged for a closer look

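The genotype difference changed with fluoxetine for 37 members by the test of the interaction (HT minus WT under fluoxetine less the same under vehicle, log2 scale, limma, 20 libraries). The interaction was above 0 for the ligands Sema6c (0.98), Sema3g (0.95), Sema7a (0.93), Sema6b (0.92), Efna2 (0.85), Efnb1 (0.81), Sema3f (0.79), Ntn5 (0.78), Efna3 (0.72), Sema4c (0.69), Slit1 (0.69), Efnb3 (0.62), Sema4d (0.58), Efna1 (0.50), Sema4b (0.48) and Sema4f (0.30). It was above 0 for the receptors Epha2 (1.31), Epha8 (0.93), Ephb4 (0.92), Unc5b (0.83), Unc5a (0.80), Plxnb2 (0.78), Ephb2 (0.77), Plxnb1 (0.71), Plxna1 (0.69), Robo4 (0.67) and Epha10 (0.57). Ligands below 0 were Sema3d (−1.11), Sema3c (−1.04), Sema3a (−1.004), Sema3e (−0.88) and Slit2 (−0.74), and receptors below 0 were Dcc (−1.26), Robo2 (−1.03), Epha3 (−0.995), Unc5d (−0.90) and Epha7 (−0.90). None of the 37 passed with the GC and length correction or without the vehicle libraries that go against their labels.

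In 210 groups of 5 libraries over 35 named genes, 14 lone values stood apart from the other 4 by more than Dixon's limit of 0.71 of the range, where chance gives about 1 in 20 groups. Among ligands at P10 these were Ntn1 in HT-P10 (1052 normalised counts), Slit2 in HT-P10 (2064), Sema3a in WT-P10 (803), Sema3c in HT-P10 (1117), Sema4d in HT-P10 (2445) and Sema6a in WT-P10 (3788) and HT-P10 (3097). The receptor Robo2 had such a value in HT-P10 (7479.7). In adults they were Slit2 in WT-Veh (805), Sema3d in WT-Veh (109.8), Sema4a in HT-Veh (3102) and Efna1 in WT-Flx (141). Arid1b itself had a lone value in WT-P10 (3164) and another in WT-Veh (2320.4), the latter in the library that goes against its label.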

How the results depend on the processing

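The counts of members past the threshold with age (55 in WT, 51 in HT mice) stayed within 1.5 times under every alternative run, and leaving out 1 library gave 53 to 57 and 46 to 53. They remained 0 for the genotype comparisons at P10 and in vehicle mice and for the age by genotype interaction under every alternative run. HT-Flx against WT-Flx went from 60 to 23 members with the GC and length correction (9 higher) and to 21 with the replicate block added (8 higher, 13 lower), and leaving out 1 library gave 57 to 60, with 38 to 39 higher and 19 to 22 lower. With that correction the sign changed for Sema4f (−0.27), Ephb3 (−0.17), Sema5a (0.0055), Slit1 (−0.00015), Sema4g (−0.11), Sema4a (−0.012), Epha7 (0.0081), Epha10 (−0.085), Epha5 (0.080), Sema4b (−0.11), Plxnb3 (−0.018), Robo4 (−0.14), Slit3 (−0.24), Sema3e (0.087) and Ntn5 (−0.17), with the same values under the block. The age change in HT mice also reversed with it for Epha7 (0.0084) and Sema3e (0.14), and with it and without the libraries that go against their labels for Epha7 (0.076) and Sema3e (0.16), where in WT mice that of Efna3 (−0.012) did. Leaving out those libraries alone reversed no age change. The fluoxetine comparison in HT mice gave 8 members with the replicate block (1 higher, 7 lower), where 1355 of 17676 genes passed (63 higher, 1292 lower). With all libraries in 1 fit it gave 37 members, where 5916 genes passed. In WT mice it gave 0 to 13 members when 1 library was left out, where 0 to 1400 genes passed. The genotype by fluoxetine interaction went from 37 to 0 members (0 higher, 0 lower) with the GC correction, with or without the block, and without the libraries that go against their labels, with or without the correction. Leaving out 1 library gave 0 to 49 members, 0 to 35 higher and 0 to 16 lower, where 0 to 7667 genes passed (0 to 4017 higher, 0 to 3650 lower). Without the intensity trend 5 members were lower. Its sign changed with the correction for Sema4f (−0.23), Epha10 (−0.13), Sema4b (−0.050) and Sema3e (0.056), and with it and without those libraries for Sema4f (−0.24), Slit1 (−0.013), Epha10 (−0.20), Plxna1 (−0.016), Sema4b (−0.037) and Sema3e (0.0097). The cause of these changes was not tested beyond what each alternative alters. The block changed no other count by more than 1.5 times. Whether the replicate numbers stand for a shared litter or batch is not given in the labels. In HT-Flx and HT-Veh same-numbered residuals correlated at a mean of 0.18 (lowest −0.02), against −0.04 for other pairs. There 3 of 5 libraries correlated best with their own number. The depth behind each value is unknown, and no interval from counts is given.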

Other observations

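Marker genes of other cell types changed with age as well. In WT mice, of 12 astrocyte genes 6 were higher and 1 lower (summed level 119381 to 144883 in WT-P10 and 152633 to 192065 in WT-Veh), and of 12 microglial genes 7 were higher and 2 lower. Of 10 oligodendrocyte precursor genes, which include no member, 0 were higher and 9 lower. Of 16 general neuron genes 7 were higher and 2 lower, of 10 striatal genes 7 were higher and 0 lower, and of 10 cerebellar granule cell genes 4 were lower and 1 higher. Of 10 genes of cortical excitatory neurons 2 were higher and 4 lower, and of 10 genes of thalamic, midbrain and hindbrain neurons 2 were higher and 2 lower. Of 10 genes of meningeal fibroblasts 2 were higher and 7 lower, and of 8 choroid plexus genes 6 were higher and 1 lower.

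Cerebellar granule cell genes varied between adult mice of a group, with sums of 12746 to 43914 in WT-Veh and 7346 to 44796 in WT-Flx against 29355 to 34404 in WT-P10.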
